A study of Mus musculus with 42 samples.

Results

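Complement is a cascade of plasma proteins, most of them made in the liver, that marks particles and cells for removal, draws in inflammatory cells and can form a pore in a membrane. The 33 mouse genes described here code for components, regulators and receptors of that cascade. They were taken by gene symbol from a list, out of 54446 genes in the count table. All 33 had an entry, and 31 had enough counts to be tested. They comprise 7 genes of the classical pathway, 5 of the lectin pathway, 4 of the alternative pathway, 7 of the terminal pathway, 6 regulators and 4 receptors.

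Liver RNA was sequenced at 32 weeks in 42 female APOE*3-Leiden mice, with 1 library per mouse. These mice carry a human transgene with the Leiden variant of APOE*3, which slows the clearance of lipoproteins, and all groups carried it, the chow group included. There were 10 mice on a maintenance chow diet, 16 on a Western-type diet (WTD) and 16 on WTD with atorvastatin, an inhibitor of cholesterol synthesis. The WTD held 15% cocoa butter, 40.5% sucrose and 1% cholesterol by weight, and was given for a run-in of 3 weeks from an age of 8 to 14 weeks before treatment began. It was supplemented with 0.05% sodium cholate from week 22 on, so that at the endpoint the comparison with chow covers the cholate as well as the fat, sugar and cholesterol. Atorvastatin was mixed into the diet at 3.0 mg/kg/day and at 4.5 mg/kg/day from week 5 on. Mice on chow and mice on either WTD carry different prefixes in their labels (AZ and Gen), whose meaning is not given, and the prefix and the diet cannot be told apart. The depth on genes was 15661381 to 36224054 read pairs per mouse. Levels are given below as CPM, the usual count unit per library size, here scaled by the trimmed mean of M values (TMM), and differences as log2 fold changes with their standard errors (SE) or as folds, tested over all 15574 tested genes by the quasi-likelihood test of edgeR with Benjamini-Hochberg adjustment. A gene was called when its adjusted p was under 0.01.

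Some libraries lacked many of the weakly expressed genes. Of the genes at a mean of 1 to 2 CPM in a mouse's own group, between 20.8% and 59.7% had no count in 8 libraries (Chow replicates 2, 5 and 6, WTD replicates 8, 9, 10 and 16 and WTD+Atorvastatin replicate 8), called the 8 sparse libraries below. The weakly expressed C5ar1, C7 and C3ar1 were called higher on WTD with these libraries and also without them, then with log2 fold changes of 1.93, 1.71 and 2.56 (edgeR, adjusted p = 0.00015, 0.00047 and 2.3e-09). Each library came from its own mouse, and the p values describe the spread between these mice.

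Activation of complement begins along 3 routes. In the classical pathway C1q binds antibody or altered surfaces and activates the proteases C1r and C1s. In the lectin pathway mannose-binding lectins or ficolins bind sugar patterns and activate the MASP proteases. In the alternative pathway C3 turns over slowly by itself and factors B, D and properdin amplify it. All routes cleave C3 and then C5, and the terminal components C5b to C9 assemble into the membrane attack complex. Hepatocytes are known to make most of these proteins, whereas C1q and properdin come mainly from macrophages and other myeloid cells, which also carry the receptors for C3a, C5a and C3 fragments.

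The sequences before the start sites of 4 genes are shown, because their RNA levels are among those followed most closely below. No sequence was at hand for C1qa. C1qb and C1qc are neighbors on chromosome 4 whose levels rose together on WTD, and Mbl1 and Mbl2 are related genes on different chromosomes whose levels fell together on WTD and parted with atorvastatin. The sequences are from RefSeq on build GRCm38.p6, written 5′ to 3′ on the strand of the gene. For C1qb the window is chr4:136886201-136886450 (minus strand), for C1qc chr4:136893066-136893164 (minus strand), for Mbl1 chr14:41151206-41151455 (plus strand) and for Mbl2 chr19:30232678-30232927 (plus strand). The C1qc window stops where the longer GENCODE gene model begins and holds 99 bases, and the others hold 250 bases before the RefSeq start. Capitals mark GAGGAA, the core that the myeloid factor PU.1 recognizes, or its reverse complement in C1qb and C1qc, and the longest run of letters that the Mbl1 and Mbl2 windows share:
C1qb: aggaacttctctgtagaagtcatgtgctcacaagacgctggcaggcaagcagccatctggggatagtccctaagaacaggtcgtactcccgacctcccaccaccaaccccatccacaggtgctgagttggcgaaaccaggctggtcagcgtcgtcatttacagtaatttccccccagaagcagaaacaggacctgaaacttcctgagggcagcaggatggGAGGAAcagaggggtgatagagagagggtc
C1qc: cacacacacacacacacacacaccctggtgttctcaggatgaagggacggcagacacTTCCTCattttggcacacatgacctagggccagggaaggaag
Mbl1: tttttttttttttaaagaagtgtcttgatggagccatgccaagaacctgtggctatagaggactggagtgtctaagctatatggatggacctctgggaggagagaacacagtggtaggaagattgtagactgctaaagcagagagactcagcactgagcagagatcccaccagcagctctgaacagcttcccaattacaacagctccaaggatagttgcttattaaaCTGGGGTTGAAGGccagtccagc
Mbl2: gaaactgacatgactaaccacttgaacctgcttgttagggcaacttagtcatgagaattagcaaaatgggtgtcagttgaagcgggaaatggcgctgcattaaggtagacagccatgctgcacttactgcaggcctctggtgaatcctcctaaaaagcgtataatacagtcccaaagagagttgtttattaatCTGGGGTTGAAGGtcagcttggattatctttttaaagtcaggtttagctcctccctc

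The shared run of Mbl1 and Mbl2 is 13 bases long and begins 23 bases before the start of Mbl1 and 57 bases before that of Mbl2. It occurs in 3 of the 32851 windows of all genes, the third being that of Slc25a53. The hits in Mbl1 and Mbl2 follow from how the run was found, and other pairs of windows were not compared. Windows of 250 bases were at hand for 25 of the 33 genes. The genes without a window, C1qa, C2, C4b, Masp1, Cfb, Serping1, Cfi and Clu, were not searched. GAGGAA was found on either strand in the windows of 5 of these 25 genes (C1qb, C1qc, Cd59a, Fcna and Itgam), and in 23.3% of the windows of all genes. The C/EBP pattern TTGCNNAA was found in C1s1, C3 and C9 and in 9.56% of all windows. GTTAAT, the half-site of the hepatocyte factor HNF1, was found in 7 genes (C1ra, C4bp, C7, C8a, C8b, Cfp and Hc) and in 6.43% of all windows. Both strands were searched for each pattern, and none of the patterns contains another. A match is a stretch of letters and not a shown site of binding.

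On WTD, 10 complement genes rose and 11 fell compared with chow, and 10 were not called. Those not called include C2 and Cfb, whose counts cannot be read, as described below. Of all tested genes, 33.5% were called in this comparison, 17.5% as higher and 16% as lower. The 10 genes that rose were the 3 chains of C1q, the receptors C3ar1, C5ar1 and Itgax, properdin (Cfp), C7, C9 and clusterin (Clu). Those that fell were 4 of 5 lectin pathway genes, C5 (Hc in the mouse), the 3 chains of C8, and the regulators C4bp, Cfi and Cd59a. The median log2 fold change of the 31 genes was -0.10, beside 0.03 over all tested genes. With atorvastatin on WTD, 6 genes were higher than on WTD alone (C4b, Masp1, Masp2, Mbl2, Hc and Cfi) and 5 were lower (C1qa, C1qb, C1qc, C6 and Clu). In that comparison 7.1% of all tested genes were called, 4.84% as higher and 2.26% as lower, and the median log2 fold change was 0.05 for the 31 genes and 0.0016 for all tested genes. With another scaling (relative log expression) the 754 higher and 352 lower calls over all genes became 582 and 479, and of the 11 complement genes the call of C4b was lost. Both comparisons use the same WTD mice.

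**Figure D1:**
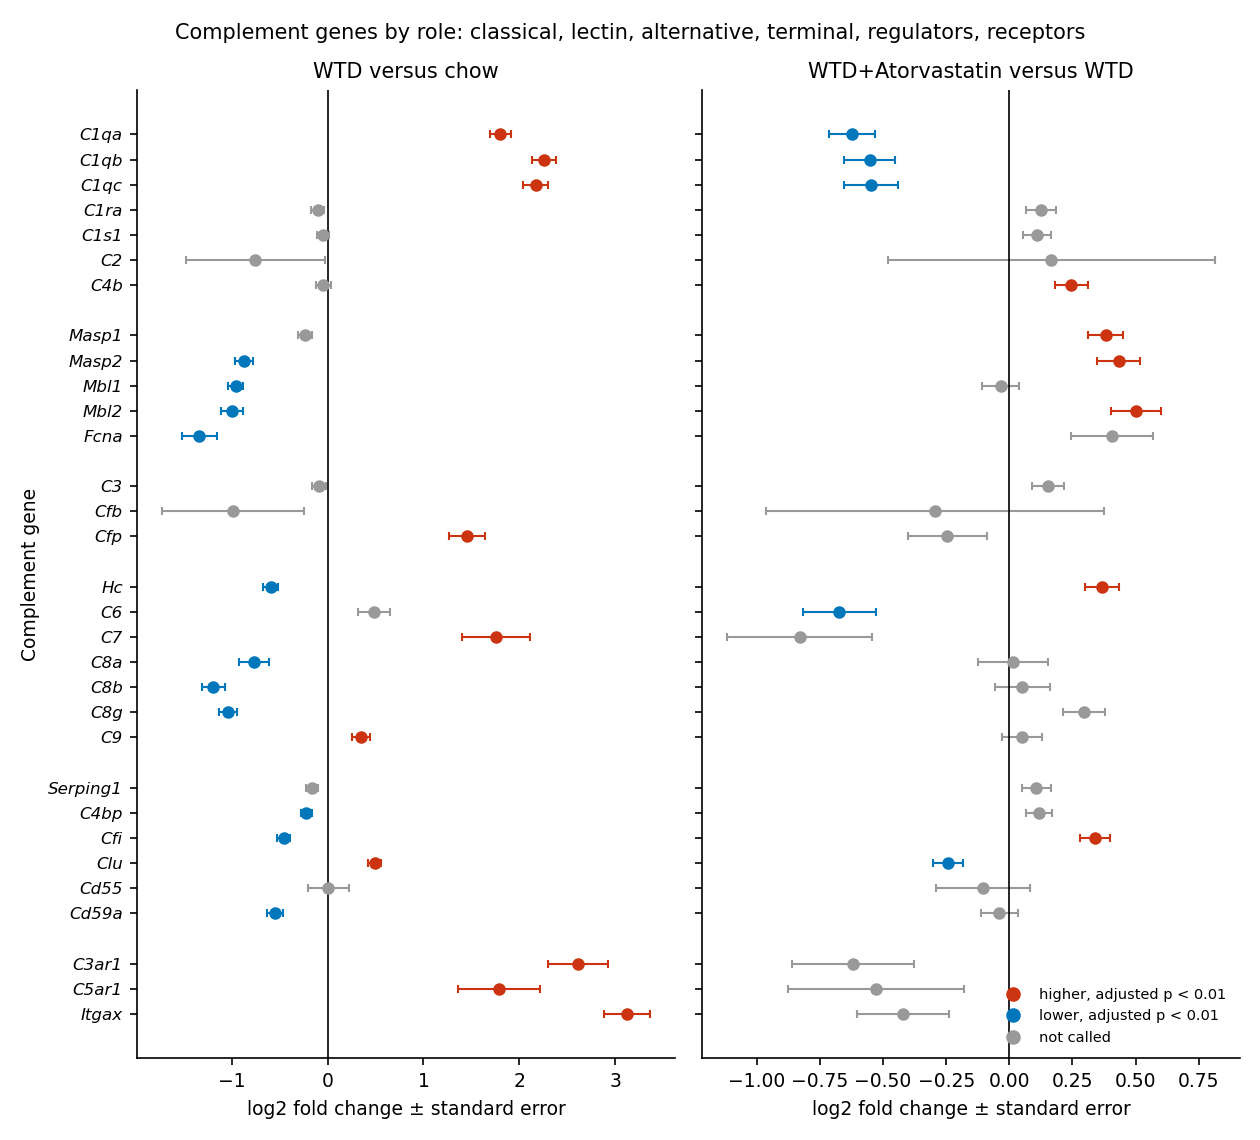
Log2 fold change with its standard error for the 31 tested complement genes, ordered by role, for WTD versus chow (left) and WTD+Atorvastatin versus WTD (right, on a narrower axis). Red points were called higher and blue points lower at an adjusted p under 0.01, and gray points were not called. The C1q chains are red on the left and blue on the right, and Masp2, Mbl2, Hc and Cfi are blue on the left and red on the right.

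Of the 31 genes, 5 had all 16 mice on WTD above the highest mouse on chow (C1qa, C1qb, C1qc, C3ar1 and Itgax) and 5 had all 16 below the lowest (Mbl1, Mbl2, Hc, C8b and C8g). Over all tested genes, 3.4% were separated upwards and 2.43% downwards. No complement gene separated the mice on WTD with atorvastatin from those on WTD, as did 1 of all 15574 genes upwards (0.00642%) and none (0%) downwards.

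The data of 3 genes cannot be read. C2 and Cfb, which code for the proteases that carry the classical and the alternative C3 convertase, and Itgam, the alpha chain of complement receptor 3, overlap other annotated genes on the same strand. The spans of those genes, introns included, cover 83.55% of the exon bases of C2, 98.65% of those of Cfb and 99.14% of those of Itgam. How many of these bases lie in exons of the other genes was not measured. Read pairs assigned to more than 1 gene were counted for neither. Over all 42 mice, C2 received 803 counts, Cfb 667 and Itgam 0. The genes that cover them, Gm20547 over C2 and Cfb and Gm49368 over Itgam, received 0 and 23 counts. Low values of C2, Cfb and Itgam can therefore not be read as low RNA levels. C2 (log2 fold change -0.75 ± 0.73 SE on WTD and 0.17 ± 0.65 SE with atorvastatin) and Cfb (-0.99 ± 0.74 SE and -0.29 ± 0.67 SE) were not called in any comparison. Read pairs aligned to several places were also left uncounted. C4b, C1ra, C1s1 and Cd59a have close copies (C4a, C1rb, C1s2 and Cd59b), and how many of their read pairs were lost in this way was not measured. Overlap with a gene on the opposite strand, as for Fcna, C1s1 and Masp2, did not keep read pairs from being counted.

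Per kilobase of exon, C3 was the most abundant of the 33 genes in chow-fed mice, with a median of 1891 CPM per kb. Mbl2 followed with 652, clusterin with 479.9, Cfi with 371 and C4b with 307 CPM per kb. The C1q chains were in the middle of the order, C1qa and C1qb with 58.5 and 58.1 CPM per kb and C1qc with 25.1. The receptors were near the end, with 1.34 for Itgax, 0.963 for C3ar1 and 0.441 CPM per kb for C5ar1.

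Of the 7 classical pathway genes, the 3 chains of C1q rose on WTD and none fell, beside 17.5% and 16% of all tested genes. C1ra, C1s1 and C4b were not called and C2 could not be read. C1qa, C1qb and C1qc code for the 3 chains that make up C1q and lie within chr4:136880129-136898803. C1qa ranged from 48.8 to 78.4 CPM (median 60.9) on chow, from 137 to 312 CPM (median 200.1) on WTD and from 92.8 to 203 CPM (median 133) with atorvastatin. All mice on WTD lay above all mice on chow, and 9 of 16 mice with atorvastatin lay below the lowest mouse on WTD. C1qa rose 3.49-fold on WTD (edgeR, log2 fold change 1.80, SE 0.11, adjusted p = 2.5e-19) and was lower with atorvastatin than on WTD alone (edgeR, log2 fold change -0.62, SE 0.09, adjusted p = 1.4e-05).

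C1qb ranged from 34.5 to 83.8 CPM (median 63.2) on chow, from 158 to 409.5 CPM (median 284) on WTD and from 148 to 267 CPM (median 194) with atorvastatin. It rose 4.79-fold on WTD (edgeR, log2 fold change 2.26, SE 0.13, adjusted p = 3.7e-20) and was lower with atorvastatin (edgeR, log2 fold change -0.55, SE 0.10, adjusted p = 0.00015). C1qc ranged from 20.9 to 58.2 CPM (median 48.5) on chow, from 125 to 278 CPM (median 201) on WTD and from 103 to 186 CPM (median 139) with atorvastatin. For both chains the mice with atorvastatin still lay above every mouse on chow, while their range overlapped that of WTD. C1qc rose 4.50-fold (edgeR, log2 fold change 2.17, SE 0.13, adjusted p = 1.3e-18), and the difference with atorvastatin was a log2 fold change of -0.55 ± 0.11 SE (edgeR, adjusted p = 0.0003).

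Mice on WTD with a high level of one chain had a high level of the others. On WTD, Pearson's r between C1qa and C1qb was 0.879, between C1qa and C1qc 0.874 and between C1qb and C1qc 0.878 on the log2 scale (n = 16 mice, Spearman's rho 0.706, 0.774 and 0.859). With atorvastatin the same pairs had r of 0.895, 0.918 and 0.882 (n = 16, rho 0.868, 0.676 and 0.712). All 6 had adjusted permutation p values of at most 0.011 for both measures, over the 24 relations computed, and r stayed at 0.733 or more without the 2 mice farthest from the median. On chow (n = 10) r was 0.795 for C1qa and C1qb, with adjusted p = 0.009 in the permutation test, 0.610 for C1qa and C1qc (adjusted p = 0.078) and 0.770 for C1qb and C1qc (adjusted p = 0.02), and the last rests on 2 mice, since it was 0.361 without them. Spearman's rho on chow was 0.794, 0.782 and 0.806 for these pairs, and all 3 passed (adjusted permutation p = 0.013, 0.014 and 0.012, n = 10). Without the 8 sparse libraries r passed for none of these pairs on chow (adjusted permutation p = 0.055, 0.12 and 0.055). The proportion of the chains was not fixed across diets. The log2 ratio of C1qb to C1qa was -0.03 ± 0.24 (SD, n = 10) on chow and 0.45 ± 0.15 (SD, n = 16) on WTD, a difference of 0.48 (adjusted p = 3e-05, permutation test over mice, from a p of 1e-05, the smallest that 100000 permutations can give). With atorvastatin it was 0.53 ± 0.13 (SD, n = 16), a difference of 0.08 from WTD (adjusted permutation p = 0.19). This ratio and the ratios of Mbl2 to Mbl1 and of C9 to C6 below were chosen after the data were seen.

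C1ra and C1s1, the proteases of the C1 complex, were not called in any comparison by edgeR. With another test, limma-voom with quality weights, C1ra was called lower on WTD and higher with atorvastatin (adjusted p = 0.0044 and 0.00011). The same test called C1s1 higher with atorvastatin (adjusted p = 0.0088). C1ra ranged from 191 to 289 CPM (median 261) on chow, from 208 to 292 CPM (median 231) on WTD and from 221 to 301 CPM (median 260.2) with atorvastatin, and C1s1 had medians of 609, 562 and 637 CPM. Their log2 fold changes on WTD were -0.10 ± 0.07 SE and -0.05 ± 0.06 SE (edgeR, adjusted p = 0.21 and 0.57). C4b codes for C4, the component that C1s and MASP2 cleave. Its level ranged from 1529.7 to 2396 CPM (median 1746) on chow, from 1542 to 1952 CPM (median 1721) on WTD and from 1549.9 to 2693 CPM (median 2058) with atorvastatin. The range on WTD lay within that on chow (edgeR, log2 fold change -0.05, SE 0.07, adjusted p = 0.66), and 12 of 16 mice with atorvastatin lay above the highest mouse on WTD. C4b was higher with atorvastatin (edgeR, log2 fold change 0.24, SE 0.07, adjusted p = 0.0076), a call that was lost under 6 of 12 alternatives, with adjusted p up to 0.029, and without any one of 18 mice. These 6 include a required log2 fold change of at least 1, which 0.24 could not meet.

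**Figure D2:**
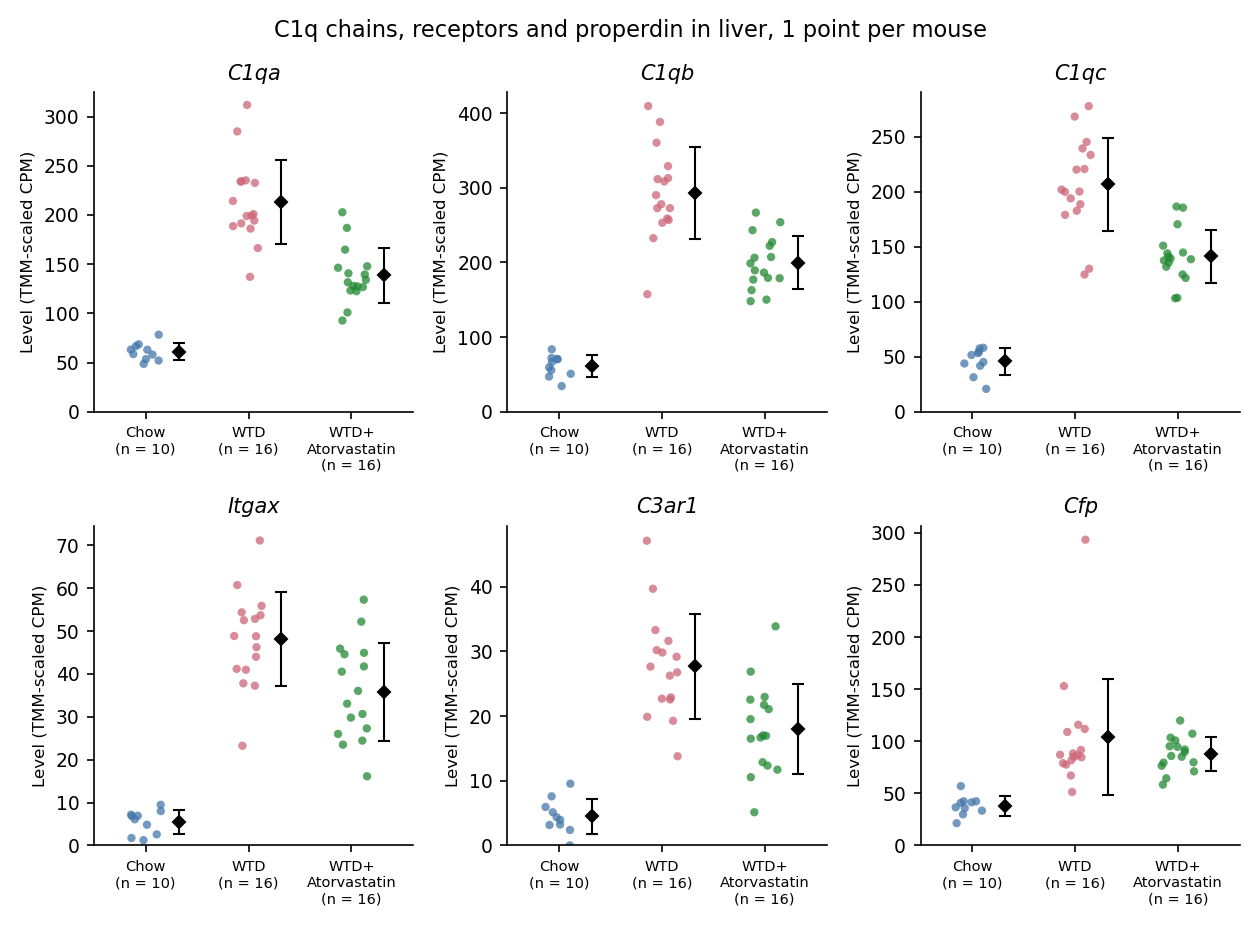
Levels of the 3 C1q chains, the receptors Itgax and C3ar1 and properdin (Cfp) in liver, as TMM-scaled CPM on linear axes that start at 0, with 1 point per mouse. Black diamonds and bars show the mean and SD of chow (n = 10), WTD (n = 16) and WTD+Atorvastatin (n = 16). For the C1q chains, Itgax and C3ar1 all mice on WTD lie above all mice on chow, and a single mouse on WTD has a Cfp level of 293.5 CPM.

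Of the 5 lectin pathway genes, 4 fell on WTD and none rose, beside 16% and 17.5% of all tested genes. Masp1 was not called, and the median log2 fold change of the 5 was -0.96. With atorvastatin, Masp1, Masp2 and Mbl2 were higher than on WTD alone and none was lower, beside 4.84% and 2.26% of all tested genes. Mbl1 and Mbl2 code for the mannose-binding lectins A and C, which recognize microbial sugars, and lie at chr14:41151458-41159601 and chr19:30232942-30239687. Mbl1 ranged from 231 to 355 CPM (median 294) on chow, from 120.1 to 189.9 CPM (median 152) on WTD and from 116 to 189 CPM (median 149.6) with atorvastatin. The mice on either WTD lay below all mice on chow and had nearly the same range as each other. Mbl1 fell 1.95-fold on WTD (edgeR, log2 fold change -0.96, SE 0.08, adjusted p = 2.5e-14), and with atorvastatin the log2 fold change was -0.03 ± 0.07 SE (adjusted p = 0.85).

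Mbl2 ranged from 669.5 to 835 CPM (median 710.3) on chow, from 235 to 629.6 CPM (median 348) on WTD and from 351 to 656 CPM (median 522) with atorvastatin. It fell 2.00-fold on WTD (edgeR, SE 0.11 on the log2 scale, adjusted p = 1.1e-10), and all mice on either WTD were below all mice on chow. Unlike Mbl1, it was higher with atorvastatin (edgeR, log2 fold change 0.50, SE 0.10, adjusted p = 0.00033). The difference between the pair was tested as a ratio within each mouse. The log2 ratio of Mbl2 to Mbl1 was 1.29 ± 0.19 (SD, n = 10) on chow, 1.21 ± 0.30 (SD, n = 16) on WTD and 1.78 ± 0.25 (SD, n = 16) with atorvastatin. It differed by -0.08 between WTD and chow (adjusted permutation p = 0.45) and by 0.57 between atorvastatin and WTD (adjusted permutation p = 3e-05). The promoter windows of this pair, printed above, share the 13-base run and lie on chromosomes 14 and 19. Whether the run bears on these levels was not tested.

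Masp1 and Masp2 code for the proteases that the lectins activate. Masp2, which cleaves C4 and C2, ranged from 276 to 383 CPM (median 309.7) on chow, from 136 to 285 CPM (median 163) on WTD and from 155 to 297 CPM (median 245) with atorvastatin. On WTD 15 of 16 mice lay below the lowest mouse on chow, and Masp2 fell (edgeR, log2 fold change -0.87, SE 0.10, adjusted p = 5.5e-11). It was higher with atorvastatin than on WTD (edgeR, log2 fold change 0.43, SE 0.09, adjusted p = 0.00031) and still lower than on chow (edgeR, log2 fold change -0.44, SE 0.10, adjusted p = 0.00021). Masp1 ranged from 153 to 234 CPM (median 182) on chow, from 116 to 216 CPM (median 169) on WTD and from 178 to 240.2 CPM (median 216) with atorvastatin. The 3 groups overlapped, and 8 of 16 mice with atorvastatin lay above the highest mouse on WTD. Masp1 was higher with atorvastatin (edgeR, log2 fold change 0.38, SE 0.07, adjusted p = 9.1e-05), whereas on WTD it missed the threshold narrowly (edgeR, log2 fold change -0.24 ± 0.08 SE, adjusted p = 0.0101) and passed it under 4 of 12 alternatives and without any one of 11 mice. A looser threshold of 0.05 is among these 4 alternatives, and its outcome was fixed by that adjusted p.

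Fcna codes for ficolin A, a lectin that in the mouse is known from macrophages of liver and spleen. It ranged from 46.7 to 111 CPM (median 73.9) on chow, from 19.1 to 59.6 CPM (median 27.5) on WTD and from 14.7 to 64.9 CPM (median 40.5) with atorvastatin. On WTD 14 of 16 mice were below the lowest mouse on chow, and Fcna fell 2.54-fold (edgeR, log2 fold change -1.34, SE 0.18, adjusted p = 4.9e-08). With atorvastatin the log2 fold change was 0.41 ± 0.16 SE (edgeR, adjusted p = 0.099), not called.

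While Fcna fell, a summed level of 5 Kupffer cell markers (Clec4f, Timd4, Marco, Cd5l and Folr2) went from a median of 295.6 CPM on chow (216 to 406) to 1197 on WTD (851 to 2254) and was 1117 with atorvastatin (788 to 1399). Of these 5 markers, 2 were called higher on WTD and none lower, with log2 fold changes from 0.24 to 3.12, so that the rise of the sum rests on some of them. With atorvastatin 1 was called higher and 1 lower than on WTD, with log2 fold changes from -2.16 to 0.62. The log2 ratio of Fcna to the sum fell by 3.36 between chow and WTD (adjusted p = 8e-05, permutation test over mice, 8 ratio tests), from -2.04 ± 0.23 (SD, n = 10) to -5.41 ± 0.32 (SD, n = 16). With atorvastatin it was 0.58 higher than on WTD (adjusted permutation p = 0.00088). Across mice of 1 group the pair went together on chow (r = 0.844, rho = 0.830, n = 10, adjusted permutation p = 0.0062 and 0.011) and on WTD (r = 0.708, rho = 0.656, n = 16, adjusted permutation p = 0.0062 and 0.012). With atorvastatin r passed and rho did not (r = 0.556, rho = 0.326, n = 16, adjusted permutation p = 0.034 and 0.25), and the relation rests on 2 mice (r = 0.086 without the 2 mice farthest from the median).

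The alternative pathway gave 1 called gene of 3 tested on WTD, beside 33.5% of all tested genes, and Cfb among the 3 cannot be read. C3, on which all routes converge, ranged from 8364 to 10371 CPM (median 9724) on chow, from 6723 to 10612 CPM (median 8973) on WTD and from 8539 to 12180 CPM (median 9768) with atorvastatin. The 3 groups overlapped widely. It was not called on WTD (edgeR, log2 fold change -0.09, SE 0.07, adjusted p = 0.33) or with atorvastatin (edgeR, log2 fold change 0.15, SE 0.06, adjusted p = 0.1). Cfp codes for properdin, which stabilizes the alternative C3 convertase, and lies on the X chromosome. It ranged from 21.3 to 56.9 CPM (median 38.7) on chow, from 51.3 to 294 CPM (median 86.8) on WTD and from 58.3 to 119.9 CPM (median 87.8) with atorvastatin. On WTD 15 of 16 mice were above the highest mouse on chow, and Cfp rose 2.74-fold (edgeR, log2 fold change 1.45, SE 0.19, adjusted p = 2.2e-08). The highest value, 293.5 CPM, came from WTD replicate 14, and the next was 153 CPM. The mean on WTD was 103.9 ± 55.5 CPM (SD, n = 16) with that mouse and 91.3 ± 23.7 CPM (SD, n = 15) without it. With atorvastatin the log2 fold change was -0.25 ± 0.16 SE (edgeR, adjusted p = 0.36). Cfd, which codes for factor D, known as a product of fat tissue, was not tested. Its median was 0 CPM in every group, and only 1 mouse, Chow replicate 1, had a level above 1 CPM, with 10.3.

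The terminal pathway moved in both directions on WTD. Of its 7 genes, 4 fell (Hc, C8a, C8b and C8g) and 2 rose (C7 and C9), beside 16% and 17.5% of all tested genes. C6 was not called. Hc codes for C5, whose cleavage releases C5a and starts the attack complex. It ranged from 531 to 747 CPM (median 626) on chow, from 342 to 505 CPM (median 409.9) on WTD and from 381 to 689 CPM (median 546) with atorvastatin. All mice on WTD were below all mice on chow, and 11 of 16 mice with atorvastatin were above the highest mouse on WTD. Hc fell on WTD (edgeR, log2 fold change -0.60, SE 0.08, adjusted p = 6.3e-09) and was higher with atorvastatin (edgeR, log2 fold change 0.37, SE 0.07, adjusted p = 0.00018).

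C8 is made of 3 chains from 3 genes, of which C8a and C8b are neighbors on chromosome 4 and C8g lies on chromosome 2. C8a ranged from 226 to 407 CPM (median 302) on chow, from 84.5 to 239 CPM (median 174) on WTD and from 106 to 326 CPM (median 178) with atorvastatin. C8b ranged from 94.3 to 197 CPM (median 147) on chow, from 43.2 to 86.3 CPM (median 66) on WTD and from 42.9 to 103 CPM (median 69.8) with atorvastatin. C8g ranged from 306 to 437 CPM (median 344) on chow, from 135 to 239 CPM (median 170.2) on WTD and from 146 to 269 CPM (median 222) with atorvastatin. All mice on WTD lay below all mice on chow for C8b and C8g, and 14 of 16 did for C8a. The chains fell on WTD by a log2 fold change of -0.77 ± 0.16 SE for C8a, -1.19 ± 0.12 SE for C8b and -1.04 ± 0.09 SE for C8g (edgeR, adjusted p = 6.2e-05, 8.6e-12 and 1e-13). With atorvastatin the log2 fold changes were 0.01 ± 0.14 SE for C8a, 0.05 ± 0.11 SE for C8b and 0.30 ± 0.08 SE for C8g (edgeR, adjusted p = 0.97, 0.84 and 0.0107). C8g missed the threshold by little and passed it under 3 of 12 alternatives and without any one of 10 mice. These 3 include a looser threshold of 0.05, which an adjusted p of 0.0107 meets by definition. Levels of C8a and C8b went together within each group, with r = 0.756 on chow (n = 10, rho = 0.782), 0.573 on WTD (n = 16, rho = 0.756) and 0.743 with atorvastatin (n = 16, rho = 0.656), each with adjusted permutation p values of at most 0.028. Without the 2 mice farthest from the median r was 0.740, 0.639 and 0.607. Without the 8 sparse libraries r no longer passed on chow or on WTD (adjusted permutation p = 0.055 for each), and it did with atorvastatin (0.0023).

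C6 and C7 join C5b before C8 binds, and C9 forms the pore. These 3 genes lie on chromosome 15, C6 and C7 at chr15:4727175-4814967 and chr15:4988762-5063740 and C9 at chr15:6445327-6498751. C6 ranged from 34.1 to 86.9 CPM (median 46.6) on chow, from 42.8 to 99.5 CPM (median 76.7) on WTD and from 31.3 to 91.1 CPM (median 36.8) with atorvastatin. With atorvastatin 9 of 16 mice were below the lowest mouse on WTD, and a single mouse, replicate 4, lay above the median of WTD. C6 was lower with atorvastatin (edgeR, log2 fold change -0.67, SE 0.15, adjusted p = 0.0011), though not without the 8 sparse libraries (log2 fold change -0.63, adjusted p = 0.012). On WTD its log2 fold change was 0.49 ± 0.17 SE (edgeR, adjusted p = 0.016), which passed the threshold under 5 of 12 alternatives. These 5 include a looser threshold of 0.05, which an adjusted p of 0.016 meets by definition.

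C9 ranged from 194 to 327 CPM (median 261) on chow, from 266 to 406 CPM (median 337) on WTD and from 254 to 501 CPM (median 344) with atorvastatin. It rose modestly on WTD (edgeR, log2 fold change 0.35, SE 0.09, adjusted p = 0.0015), with 9 of 16 mice above the highest mouse on chow, and was not called with atorvastatin (edgeR, log2 fold change 0.05 ± 0.08 SE, adjusted p = 0.78). The log2 ratio of C9 to C6 was 2.32 ± 0.43 (SD, n = 10) on chow, 2.15 ± 0.32 (SD, n = 16) on WTD and 2.91 ± 0.50 (SD, n = 16) with atorvastatin. It was 0.76 higher with atorvastatin than on WTD (adjusted permutation p = 0.00012) and differed by -0.17 between WTD and chow (adjusted permutation p = 0.3). Within groups, levels of C6 and C9 showed no relation that passed, with r of 0.376 on chow, 0.286 on WTD and 0.138 with atorvastatin (n = 10, 16 and 16, rho 0.345, 0.253 and 0.268, adjusted permutation p of 0.3 or more).

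C7 was the least abundant of the terminal genes. It ranged from 0.511 to 7.26 CPM (median 1.83) on chow, from 1.99 to 14.4 CPM (median 8.10) on WTD and from 1.47 to 7.63 CPM (median 4.50) with atorvastatin. On WTD 8 of 16 mice lay above the highest mouse on chow, Chow replicate 1, whose 7.26 CPM stood apart from the next at 3.89 CPM. C7 rose on WTD (edgeR, log2 fold change 1.76, SE 0.35, adjusted p = 4.3e-05), and with atorvastatin the log2 fold change was -0.83 ± 0.29 SE (edgeR, adjusted p = 0.046).

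**Figure D3:**
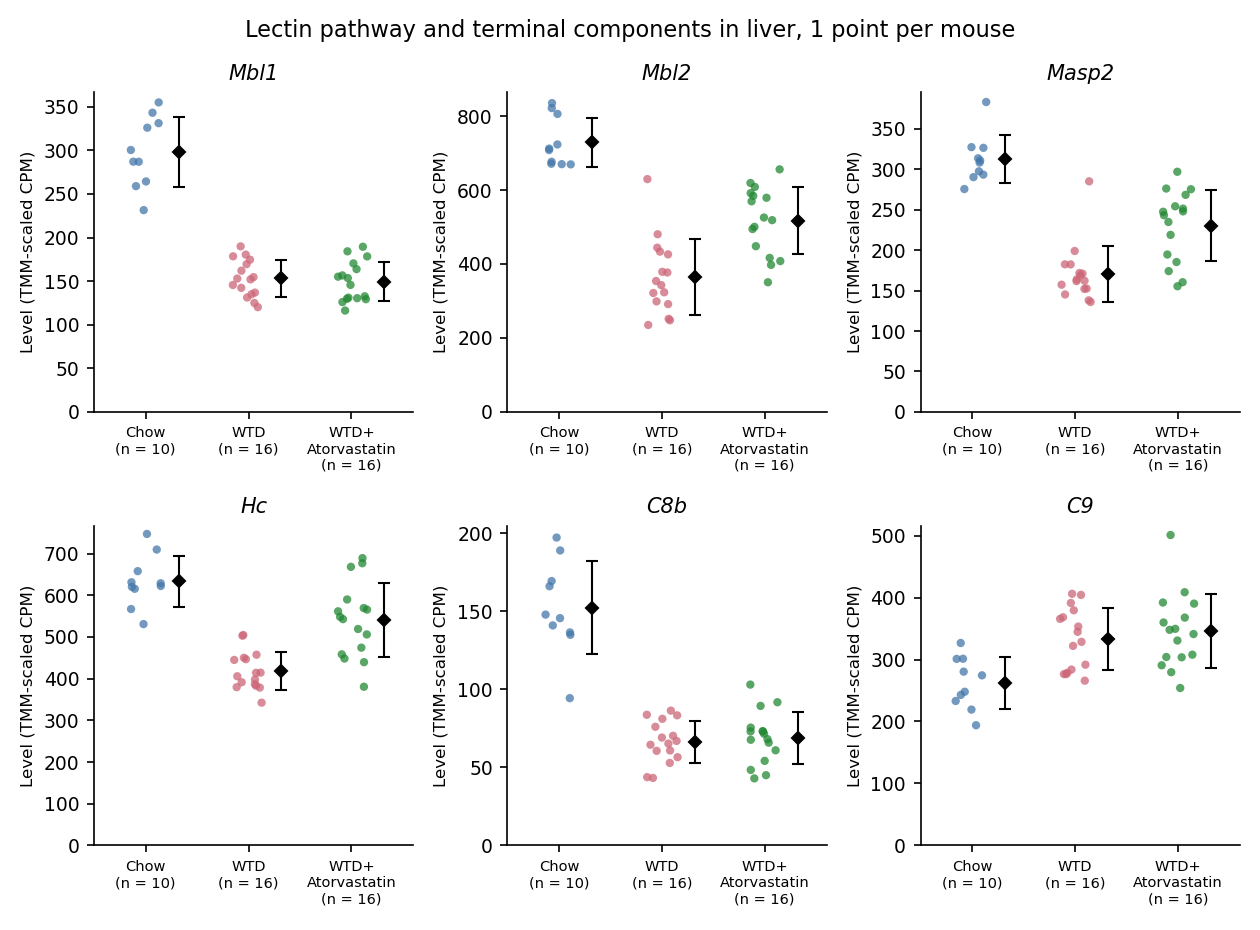
Levels of Mbl1, Mbl2, Masp2, Hc, C8b and C9 in liver, as TMM-scaled CPM on linear axes that start at 0, with 1 point per mouse and the mean and SD as black diamonds and bars (chow n = 10, WTD n = 16, WTD+Atorvastatin n = 16). Mbl1 and C8b are low in both WTD groups, with medians of 152 and 149.6 CPM for Mbl1, whereas the mice with atorvastatin have medians between those of chow and WTD for Mbl2, Masp2 and Hc.

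Among the 6 regulators, Cfi, C4bp and Cd59a fell on WTD and clusterin rose, beside 16% and 17.5% of all tested genes. Serping1 and Cd55 were not called. Cfi codes for factor I, the protease that inactivates C3b and C4b. It ranged from 746 to 882 CPM (median 823) on chow, from 525 to 762 CPM (median 591) on WTD and from 583 to 909 CPM (median 739.6) with atorvastatin. On WTD 15 of 16 mice were below the lowest mouse on chow, and with atorvastatin 8 of 16 were above the highest mouse on WTD. Cfi fell on WTD (edgeR, log2 fold change -0.46, SE 0.07, adjusted p = 1.2e-07) and was higher with atorvastatin (edgeR, log2 fold change 0.34, SE 0.06, adjusted p = 8.4e-05). C4bp, a cofactor of factor I, ranged from 502 to 639 CPM (median 543) on chow, from 381 to 536 CPM (median 477) on WTD and from 448 to 563 CPM (median 527) with atorvastatin. Its fall on WTD was small (edgeR, log2 fold change -0.22, SE 0.06, adjusted p = 0.0009) and was not called without the 8 sparse libraries (log2 fold change -0.21, adjusted p = 0.011). Cd59a, a membrane protein that blocks the attack complex, ranged from 78.8 to 115 CPM (median 102) on chow, from 54.1 to 80.8 CPM (median 64.9) on WTD and from 49.3 to 82.9 CPM (median 64.3) with atorvastatin. Cd59a fell on WTD (edgeR, log2 fold change -0.55, SE 0.08, adjusted p = 1.3e-07) and did not pass the test with atorvastatin (edgeR, log2 fold change -0.04 ± 0.07 SE, adjusted p = 0.82).

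Clu codes for clusterin, a secreted chaperone that binds the terminal complex. It ranged from 1463 to 1922 CPM (median 1649) on chow, from 1920.2 to 2679 CPM (median 2328) on WTD and from 1547 to 2536 CPM (median 1884) with atorvastatin. On WTD 15 of 16 mice were above the highest mouse on chow, and with atorvastatin 8 of 16 were below the lowest mouse on WTD. Clu rose on WTD (edgeR, log2 fold change 0.49, SE 0.07, adjusted p = 5.6e-08) and was lower with atorvastatin (edgeR, log2 fold change -0.24, SE 0.06, adjusted p = 0.0038), the latter not without the 8 sparse libraries (log2 fold change -0.20, adjusted p = 0.044). Serping1, the inhibitor of C1r, C1s and the MASPs, had medians of 701, 612 and 676 CPM on chow, WTD and WTD with atorvastatin, with log2 fold changes of -0.16 ± 0.07 SE on WTD and 0.11 ± 0.06 SE with atorvastatin (edgeR, adjusted p = 0.04 and 0.26). Cd55, which dissociates C3 convertases, had medians of 13.2, 12.5 and 13.2 CPM and log2 fold changes of 0.01 ± 0.21 SE and -0.10 ± 0.19 SE (edgeR, adjusted p = 0.98 and 0.81).

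The 3 receptors that could be tested all rose on WTD, beside 17.5% of all tested genes. Itgax, a neighbor of Itgam at chr7:128129547-128150657, codes for CD11c, the alpha chain of complement receptor 4, and is widely used as a marker of dendritic cells and of macrophages in fatty tissue. It ranged from 1.21 to 9.47 CPM (median 6.46) on chow, from 23.2 to 71.1 CPM (median 48.8) on WTD and from 16.1 to 57.3 CPM (median 34.5) with atorvastatin. All 32 mice on either WTD lay above all mice on chow. Itgax rose 8.72-fold on WTD (edgeR, log2 fold change 3.13, SE 0.24, adjusted p = 2.6e-14), the largest rise of the 31 genes, and with atorvastatin the log2 fold change was -0.42 ± 0.18 SE (edgeR, adjusted p = 0.13). C3ar1, the receptor for C3a, ranged from 0 to 9.54 CPM (median 4.15) on chow, from 13.8 to 47.1 CPM (median 27.2) on WTD and from 5.12 to 33.9 CPM (median 17) with atorvastatin. It rose 6.12-fold on WTD (edgeR, log2 fold change 2.61, SE 0.31, adjusted p = 2.6e-09), and with atorvastatin 5 of 16 mice lay below the lowest mouse on WTD (edgeR, log2 fold change -0.62 ± 0.24 SE, adjusted p = 0.085). C5ar1, the receptor for C5a, was low, with ranges of 0 to 3.97 CPM on chow, 0.676 to 11.1 on WTD and 1.02 to 7.26 with atorvastatin and medians of 1.13, 5.50 and 3.81. C5ar1 rose on WTD (edgeR, log2 fold change 1.79, SE 0.43, adjusted p = 0.0005), with 13 of 16 mice above the highest mouse on chow. With atorvastatin its log2 fold change from WTD was -0.53 ± 0.35 SE (edgeR, adjusted p = 0.38).

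In whole liver, fewer cells of a type and less RNA per cell cannot be told apart, and markers of several cell types moved with these genes. A summed level of 10 macrophage markers (among them Adgre1, Cd68, Csf1r and Lyz2) went from a median of 371.6 CPM on chow (307 to 404) to 2194 on WTD (1257 to 2772) and was 1267 with atorvastatin (1029 to 1948). Of these markers 9 were called higher and 1 lower on WTD, with log2 fold changes from -5.53 to 3.47. The 1 that fell thus changed more than any that rose. With atorvastatin 4 were lower and none higher, with log2 fold changes from -0.99 to 0.55. Among all tested genes, 17.5% were called higher and 16% lower on WTD, and 4.84% and 2.26% with atorvastatin. A sum of 8 markers of lipid-associated macrophages (Trem2, Gpnmb, Cd9, Spp1, Fabp5, Lpl, Mmp12 and Cd63) had medians of 217, 2265 and 1109 CPM on chow (173 to 409), WTD (874 to 2836) and WTD with atorvastatin (818 to 1901), with 8 of 8 higher on WTD and 5 of 8 lower with atorvastatin. The sum of 10 hepatocyte markers went the other way, with medians of 135880 CPM on chow (120280 to 169470), 77961 on WTD (63867 to 114020) and 116870 with atorvastatin (71697 to 137010), 9 of 10 being called lower and 1 higher on WTD, and 5 higher and 1 lower with atorvastatin. The hepatocyte markers, Alb and Hnf4a among them, were detected in all groups. The part of these shifts in the results on other complement genes was not tested, and for C1q, C3ar1, Itgax and Fcna each gene was set against the markers as a ratio.

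Set against the macrophage markers of the same mouse, C1q was lower on WTD than on chow. The log2 ratio of the summed C1q chains to the summed macrophage markers was -1.12 ± 0.25 (SD, n = 10) on chow, -1.60 ± 0.15 (SD, n = 16) on WTD and -1.49 ± 0.17 (SD, n = 16) with atorvastatin. It fell by 0.48 on WTD (adjusted p = 8e-05, permutation test over mice) and differed by 0.11 between atorvastatin and WTD (adjusted permutation p = 0.095). Within groups the sums went together on WTD (r = 0.860, rho = 0.862, n = 16, adjusted permutation p = 0.00041 and 0.00064) and with atorvastatin (r = 0.782, rho = 0.7, n = 16, adjusted permutation p = 0.00075 and 0.0084), and r was 0.640 and 0.659 without the 2 mice farthest from the median. On chow rho passed and r did not (r = 0.552, rho = 0.697, n = 10, adjusted permutation p = 0.11 and 0.035). The ratio of C3ar1 to the macrophage markers differed by 0.18 on WTD and by 0.02 with atorvastatin on the log2 scale (adjusted permutation p = 0.83 and 0.91). The SD of that ratio was 1.11 on chow, so that small differences could not be detected.

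Itgax was set against the markers of lipid-associated macrophages. Its log2 ratio to their sum was -5.51 ± 0.73 (SD, n = 10) on chow, -5.48 ± 0.21 (SD, n = 16) on WTD and -5.12 ± 0.31 (SD, n = 16) with atorvastatin. It differed by 0.04 on WTD (adjusted permutation p = 0.91) and was 0.36 higher with atorvastatin (adjusted permutation p = 0.0019). Itgax and the sum went together on WTD (r = 0.851, rho = 0.762, n = 16, adjusted permutation p = 0.00075 and 0.0034) and with atorvastatin (r = 0.768, rho = 0.776, n = 16, adjusted permutation p = 0.0017 and 0.0034), with r of 0.643 and 0.811 without the 2 farthest mice. On chow rho passed and r did not (r = 0.584, rho = 0.745, n = 10, adjusted permutation p = 0.087 and 0.022).

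**Figure D4:**
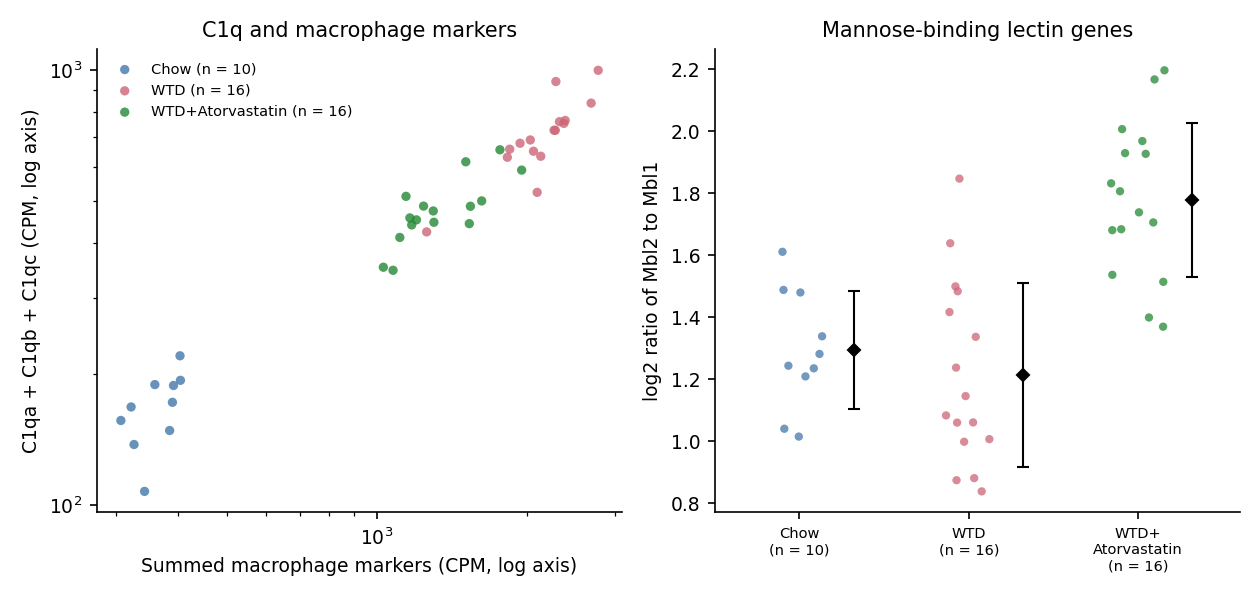
Left, summed level of C1qa, C1qb and C1qc against the summed level of 10 macrophage markers, both in CPM on log axes, with 1 point per mouse colored by group. Right, log2 ratio of Mbl2 to Mbl1 per mouse, with the mean and SD of each group as black diamonds and bars. On the left the chow mice lie apart from the others and the mice with atorvastatin mostly below those on WTD, and on the right the mice with atorvastatin have a mean ratio of 1.78 beside 1.21 on WTD.

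Neutrophil, dendritic and stellate cell markers were followed as well. Of 8 neutrophil markers 4 could be tested, 3 of them higher on WTD, and Ly6g, Retnlg, Mpo and Camp were at 0 in most mice of every group, the summed medians being 10.9 CPM on chow (6.78 to 29.1), 28.4 on WTD (20.4 to 44.1) and 22.8 with atorvastatin (12.1 to 38.0). Dendritic cell markers summed to medians of 24.4 (10.7 to 27.7), 27.5 (23.0 to 37.8) and 30.0 CPM (22.2 to 41.0) on chow, WTD and WTD with atorvastatin, and 1 of 7 was called higher on WTD. Stellate cell markers summed to medians of 545 (414 to 669), 1725 (1050 to 2075) and 1133 CPM (963 to 2023), with 4 of 8 higher on WTD and, with atorvastatin, 1 higher and 2 lower. The part of these cell types in the results was not tested.

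Further complement genes were taken from a second list. Of its 25 genes, 20 could be tested, and on WTD 2 were higher and 11 lower, beside 17.5% and 16% of all tested genes. The median log2 fold change was -0.49, beside 0.03 over all tested genes. The rises were those of Itgb2, the beta chain shared by complement receptors 3 and 4 (edgeR, log2 fold change 2.41, SE 0.22, adjusted p = 2.2e-12), and Vsig4, a receptor for C3b on tissue macrophages (log2 fold change 1.05, SE 0.16, adjusted p = 4.1e-07). Among the strongest falls were those of the membrane regulator Susd4 (log2 fold change -2.85, SE 0.43, adjusted p = 2.8e-07) and the collectin Colec10 (-1.28, SE 0.31, adjusted p = 0.00075). With atorvastatin 6 of the 20 were higher and none was lower, beside 4.84% and 2.26% of all tested genes. Among the strongest were Colec10 (edgeR, log2 fold change 1.41, SE 0.28, adjusted p = 0.00052) and Cfhr2 (0.50, SE 0.08, adjusted p = 4.6e-05). Between atorvastatin and chow 2 were higher, Itgb2 (edgeR, log2 fold change 2.01, adjusted p = 3.9e-10) and Vsig4 (1.00, adjusted p = 1.7e-06), and 8 were lower, among them Susd4 (-3.04, adjusted p = 1.7e-07) and C4a (-0.74, adjusted p = 0.0097), beside 14.2% and 10.7% of all tested genes.

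The mice on WTD with atorvastatin were last compared with those on chow, which asks how far treated livers remained from the healthy reference. In this comparison 25% of all tested genes were called, 14.2% as higher and 10.7% as lower. Of the complement genes, 8 were higher (C1qa, C1qb, C1qc, Cfp, C9, Clu, C3ar1 and Itgax) and 8 lower (Masp2, Mbl1, Mbl2, Fcna, C8a, C8b, C8g and Cd59a). The call of Clu (edgeR, log2 fold change 0.25, adjusted p = 0.0036) was lost under 3 of 12 alternatives, among them upper-quartile normalization and a fit of only these groups, with adjusted p up to 0.015, and without Chow replicate 1. The remaining alternative required a log2 fold change of at least 1, which 0.25 could not meet. The C1q chains stayed 2.27-fold (C1qa), 3.27-fold (C1qb) and 3.08-fold (C1qc) above chow (edgeR, adjusted p = 6.2e-13, 7.6e-16 and 2.7e-14), and Itgax 6.52-fold (adjusted p = 2.5e-12). Mbl1 and C8b remained 2.00-fold and 2.21-fold below chow (edgeR, adjusted p = 1.9e-14 and 7.7e-11), and Mbl2 1.41-fold (adjusted p = 0.00033). Hc and Cfi, which fell on WTD and were higher with atorvastatin, were not called against chow (edgeR, log2 fold changes -0.23 ± 0.08 SE and -0.12 ± 0.07 SE, adjusted p = 0.017 and 0.17). Hc was called lower than on chow under 5 of 12 alternatives, with adjusted p down to 0.0056, and without any one of 3 mice. These 5 include a looser threshold of 0.05, which an adjusted p of 0.017 meets by definition. C5ar1 was not called against chow either (edgeR, log2 fold change 1.26 ± 0.42 SE, adjusted p = 0.015). It was called higher than on chow under 4 of 11 alternatives, among them DESeq2, the fit without the 8 sparse libraries and that looser threshold. All mice with atorvastatin lay above all mice on chow for 5 genes (C1qa, C1qb, C1qc, Cfp and Itgax) and below them for 3 (Mbl1, Mbl2 and C8g), beside 2.88% and 1.5% of all tested genes.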

How the data were processed

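Liver RNA of 42 mice was measured by strand-specific sequencing of polyadenylated RNA. Per the labels and the study's methods, the authors trimmed reads with Trimmomatic, aligned them to GRCm38 with STAR 2.5 and counted read pairs per gene of GENCODE vM19 with HTSeq 0.6.1p1. The deposited values are raw counts, not normalized. The table of all mice matched the 42 single tables. Read pairs ambiguous between genes (5.95% on average) and those aligned to several places (4.68%) are in no gene's count, and summary lines were left out of totals. Depth was 15661381 to 36224054 counts per mouse. The number of mice and of counts limits the precision of low genes.

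Symbols, positions and exon lengths came from GENCODE vM21 (54409 of 54446 identifiers matched). In R 4.3.3 with edgeR 4.0.16, filterByExpr kept genes by a minimum count of 10 and a total of at least 15, library sizes were scaled by TMM, and glmQLFit and glmQLFTest were applied, with all 42 mice, robust estimation and no covariates, since the labels give no batch. Adjusted p values (Benjamini-Hochberg, 15574 genes) under 0.01 were called. CPM per kb divides by the union of exons. Ratios and relations used log2 CPM with 0.5 CPM added and 2-sided permutation tests (100000 resamples, Benjamini-Hochberg over 8 ratios, 6 added ratios and 24 relations, threshold 0.05). A planned ratio of Itgam could not be computed.

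All 33 genes are named. Of the 25 further complement genes, the 3 strongest called rises and falls per comparison are named, except for items not reported here. The members, lists and tests were chosen with earlier results of these data known. Alternatives were DESeq2 1.42.0, limma-voom (limma 3.58.1), other normalizations, filters and thresholds, subsets of libraries and leaving out each mouse. On simulated data with 15574 genes, the test called 121 of 200 genes given a log2 change of 1 for WTD versus chow, with 3 unchanged genes called, and 124 of 200 for atorvastatin versus WTD, with 2. A far larger share of genes, 33.5%, was called in the real WTD versus chow data, and such a share was not simulated. Nor were smaller changes, such as those of the called complement genes with atorvastatin, all under 1 on the log2 scale. Levels and permutation tests used numpy 2.4.6, scipy 1.17.1 and pandas 2.3.3 in Python 3.11.15, with figures by matplotlib 3.10.9.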

Additional observations from a re-analysis of the deposited data

Results flagged for a closer look

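In 4 of the 32 complement genes with a count on chow, the highest of the 10 chow-fed mice stood apart from the next by more than Dixon's 95% limit. Chance passes that limit in about 1 of 20 groups of normally distributed values. That rate need not hold for levels near 0, as those of C2, C7 and Cfd, the last at 0 in 8 of the 10 mice. Groups of 16 mice were not examined in this way. For C2 it was Chow replicate 2 with 4.47 CPM (next 2.32 CPM), in a gene whose counts cannot be read. For Masp2 it was Chow replicate 5 with 383 CPM (next 328 CPM). For Cfd it was Chow replicate 1 with 10.3 CPM (next 0.890 CPM), and for C7 the same mouse with 7.26 CPM (next 3.89 CPM). Chow replicates 2 and 5 belong to the 8 sparse libraries, and Chow replicate 1 does not.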

How the results depend on the processing

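No complement gene with a call changed its direction under any of 12 alternatives or without any of the 42 mice. The number called was 21 for WTD versus chow, 11 for atorvastatin versus WTD and 16 for atorvastatin versus chow. With a log2 fold change of at least 1 as well, it was 11 (8 higher and 3 lower), 0 and 7 (6 higher and 1 lower). Over all tested genes, the shares with that fold change were 10.3% higher and 3.47% lower, 0.424% and 0.218%, and 6.77% and 1.5%. With limma-voom with quality weights it was 19 for atorvastatin versus WTD (11 higher and 8 lower). That method also called more of all tested genes there, 11.8% as higher and 8.41% as lower, beside 4.84% and 2.26% by edgeR. For atorvastatin versus WTD, limma-voom with quality weights added calls of C1ra, C1s1, C3, Fcna and C8g as higher and of C7, C3ar1 and Itgax as lower. Its adjusted p was 0.0035 for C3, 0.0039 for Fcna and 0.0015 for Itgax. For WTD versus chow it also called C1ra (adjusted p = 0.0044) and Serping1 (0.0078) lower. Leaving out each mouse gave 21 to 23, 10 to 12 and 16 to 18 calls. For atorvastatin versus WTD, C4b was not called without any one of WTD replicates 1, 2, 4, 5, 6, 10, 11, 13 and 14 or WTD+Atorvastatin replicates 6, 8, 9, 10, 11, 12, 13, 14 and 16 (adjusted p 0.01 to 0.019), and C8g was called without any one of Chow replicates 2 and 9, WTD replicates 1 and 15 or WTD+Atorvastatin replicates 1, 2, 3, 4, 7 and 15 (0.0017 to 0.01). For WTD versus chow, Masp1 was called without any one of Chow replicates 1, 2, 3, 4 and 9, WTD replicates 1, 4, 8, 15 and 16 or WTD+Atorvastatin replicate 3 (0.0024 to 0.0099), and C6 without any one of Chow replicates 4, 6 and 7, WTD replicate 15 or WTD+Atorvastatin replicate 4 (0.0036 to 0.0093). For atorvastatin versus chow, C7 was called (adjusted p = 0.0019) and Clu was not (0.01) without Chow replicate 1, C4b was called without Chow replicate 5 (0.0056), C5ar1 without Chow replicate 3 or 5 (0.0047 and 0.0054), and Hc without WTD+Atorvastatin replicate 9, 12 or 14 (0.0067 to 0.0083). The cause was not tested. Without the 8 sparse libraries, the relations on chow between C1qa and C1qb (r = 0.784), C1qb and C1qc (r = 0.838) and C8a and C8b (r = 0.750), and on WTD between C8a and C8b (r = 0.596), no longer passed (each adjusted permutation p = 0.055, with fewer mice). The 8 planned ratio tests kept their side of the threshold with another scaling and without these libraries. No paired analysis was possible because the numbers of the mice name different animals. Depth limits the weakly expressed C7, C5ar1 and C3ar1, and C2, Cfb, Cfd and Itgam cannot be judged from these counts.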

Other observations

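A single mouse, WTD replicate 15, held an extreme place in its group for many complement genes. Of 32 genes with a count, it had the highest level among the 16 mice on WTD for 10 (C1ra, C1s1, Masp1, Masp2, Mbl2, Cfd, C8g, Serping1, C4bp and Cfi) and the lowest for 9 (C1qa, C1qb, C6, C7, C8a, Clu, C3ar1, C5ar1 and Itgax). Its Mbl2 level was 629.6 CPM and its Masp2 level 285 CPM, beside group medians of 348 and 163 CPM, and its C1qa level was 137 CPM, beside a median of 200.1 CPM. The same mouse had the highest sum of hepatocyte markers on WTD (114016 CPM) and the lowest sum of macrophage markers (1257 CPM). It was not among the 8 sparse libraries, but only just. Of the genes at a mean of 1 to 2 CPM in its group, 18.95% had no count in this mouse, beside a limit of 20%. Without it no call of a complement gene was lost. The calls that were added for WTD versus chow were Masp1 (log2 fold change -0.27, adjusted p = 0.0024) and C6 (log2 fold change 0.53, adjusted p = 0.0073), and for atorvastatin versus WTD the added call was C8g (log2 fold change 0.33, adjusted p = 0.0017), all by edgeR.

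Among the mice with atorvastatin, replicate 14 had the highest level of 7 genes (C1ra, C4b, Masp2, Hc, Serping1, C4bp and Cfi) and the highest sum of hepatocyte markers (137013 CPM), while replicate 2 had the highest level of 7 others (C1qa, C1qb, C1qc, C3, C9, Clu and C5ar1) and the lowest sum of hepatocyte markers (71697 CPM). These mice were picked out after their values were seen, and what sets them apart was not tested.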
